A study of Homo sapiens with 6 samples.

Results

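Death receptors are cell surface proteins of the TNF receptor family that carry a death domain inside the cell. The members described here are 10 genes chosen by name as the core of this pathway: the TRAIL receptors TNFRSF10A, TNFRSF10B, TNFRSF10C and TNFRSF10D, the receptors FAS, TNFRSF1A and TNFRSF21, the adaptor FADD, the initiator caspase CASP8 and its inhibitor CFLAR. Every probe set annotated to one of these genes and to no other was taken, which gave 27 probe sets for 9 genes out of 22215 probe sets and 12165 genes. TNFRSF10A was not analysed here, and neither was a probe set that names TNFRSF10C together with a second gene. CFLAR had 11 probe sets, FAS 4, TNFRSF10B 3, TNFRSF10C, TNFRSF21 and CASP8 2 each, and TNFRSF10D, TNFRSF1A and FADD 1 each.

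When TRAIL, FAS ligand or TNF binds its receptor, the death domains gather the adaptor FADD, directly or through TRADD, and FADD draws in caspase 8, which then cuts itself and starts the caspase cascade. CFLAR resembles caspase 8 but lacks its protease activity, and in the same complex it limits caspase 8 activation. TNFRSF10C and TNFRSF10D bind TRAIL without a working death domain and are known as decoy receptors. TNFRSF10B is also known as a target of the stress transcription factor CHOP, encoded by DDIT3.

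The cells were LNCaP, an established line from a prostate cancer metastasis, kept in RPMI with serum. They received gedunin, a plant limonoid, at 20 µM or DMSO, its solvent, for 6 h, and there were 3 arrays of each, which the labels number as biological replicates. The labels give no further genotype or agent, so every array should represent this single line. Each value is an RMA intensity (background-corrected, quantile-normalised and summarised over the probes of a probe set), and array medians lay between 31.1 and 32.0. Precision is limited by having so few arrays; nothing in the labels ties them to separate cultures beyond the word biological, so a p-value reflects array-to-array spread. In such bulk RNA, fewer cells that express a gene and less RNA per cell cannot be told apart.

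The array labelled DMSO 3 went against its label and is given apart throughout. Of 8 measured luminal prostate markers, 5 were at least 8-fold lower there than on the remaining arrays on average, and the summed marker level was 199 against 13151 to 14277. Of 12 measured leukocyte markers, 9 were at least 8-fold higher, with a sum of 16895 against 254 to 260 elsewhere, where all 12 read below the median of the table and 0 were called. Between gedunin and DMSO 1 and 2, 4 luminal markers were called, KRT8 and KRT18 higher and TMPRSS2 and HOXB13 lower. Summed stromal markers (7 genes) were 261 to 274 with gedunin and 199 to 206 on DMSO 1 and 2, of which COL1A1 and ACTA2 were the 2 called; their part in the results was not tested. The comparison is therefore gedunin (n = 3) against DMSO 1 and 2 (n = 2), fitted by limma over all probe sets. Changes are log2 fold changes, gedunin over DMSO, with limma's standard error, and a probe set was called at a Benjamini-Hochberg adjusted p under 0.05. Each gene is read on its brightest probe set, the one with the highest mean over these 5 arrays, and the others are given beside it.

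With gedunin, 4 of the receptors rose and a decoy receptor fell, while the caspase and its inhibitor were not called. The genes that rose were TNFRSF10B, FAS, TNFRSF1A and TNFRSF21, by 2.18-fold to 3.46-fold, and those that fell were TNFRSF10D and FADD. In all, 10 of 27 probe sets were called higher, against 7.37% of all probe sets on the arrays, and 2 were called lower, against 7.91%. At gene level, 4 of 9 were called higher, against 8.24% of all genes, and 2 lower, against 9.36%. The median log2 change was 0.20 over the 9 genes and -0.017 over all genes. The first is the value of TNFRSF10C, the middle gene, and moved to 0.10 without DMSO 1, 0.11 without gedunin 3 and 0.30 without DMSO 2, and to 0.072 when a gene's probe sets were averaged. Centring each array on GAPDH and ACTB lowered the median of all genes to -0.19. The calls then stood at 10 higher and 8 lower probe sets, of which 6 lower ones were CFLAR probe sets, while the gene-level split remained 4 and 2.

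**Figure D1:**
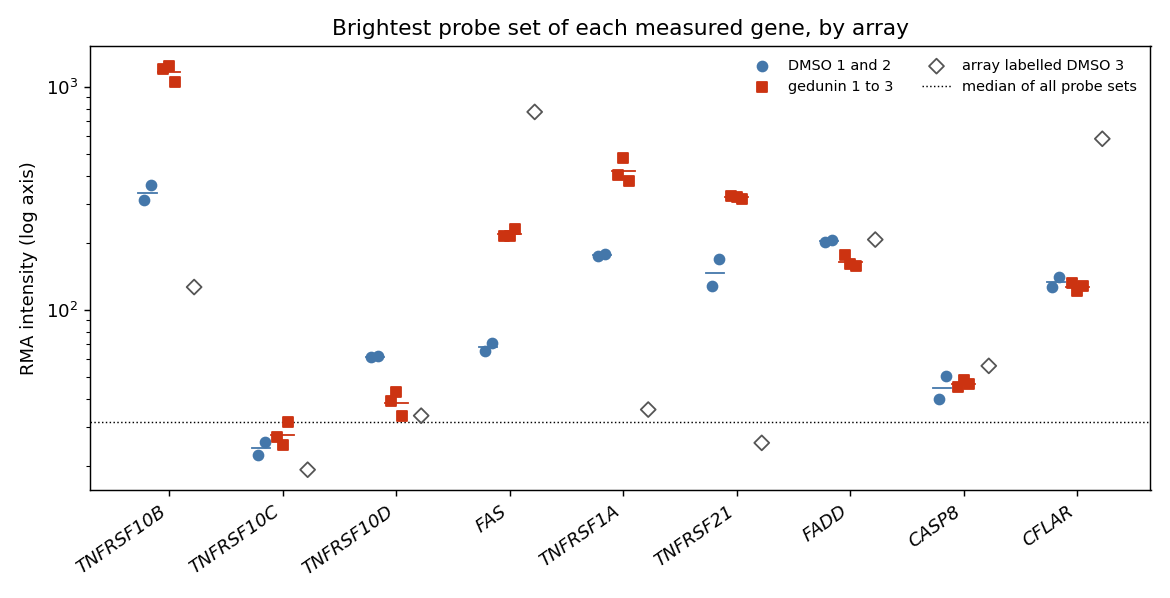
RMA intensity on a log axis of the brightest probe set of each of the 9 measured genes, with circles for DMSO 1 and 2, squares for gedunin 1 to 3, an open diamond for the array labelled DMSO 3, short lines for geometric means and a dotted line at the median of all probe sets (31.3). The 3 gedunin squares lie above both DMSO circles for TNFRSF10B, FAS, TNFRSF1A and TNFRSF21 and below them for TNFRSF10D and FADD.

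TNFRSF10B encodes the TRAIL receptor DR5, which carries a full death domain. Its brightest probe set read 1205, 1240 and 1053 with gedunin against 312 and 362 on DMSO 1 and 2. The groups did not overlap, and the lowest gedunin array stood far above the higher DMSO array. The log2 change was 1.79 ± 0.11, a 3.46-fold rise (limma adjusted p = 3.46e-06), which ranked 73 of 12165 genes by size of rise. Its other probe sets read 1190, 1245 and 991 against 320 and 370, and 1163, 1103 and 958 against 348 and 337. They rose by 1.72 ± 0.12 and 1.65 ± 0.10 (limma adjusted p = 8.70e-06 and 4.62e-06), so the 3 probe sets gave much the same size. On the array labelled DMSO 3 the 3 probe sets read 127, 203 and 314, all below DMSO 1 and 2.

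Of the decoy receptors, TNFRSF10D fell while TNFRSF10B rose, and TNFRSF10C was too dim to show whether it followed. The 4 TRAIL receptor genes are consecutive protein-coding genes in the RefSeq annotation. TNFRSF10D read 39.2, 42.9 and 33.6 with gedunin against 61.4 and 61.9 on DMSO 1 and 2. Every gedunin array was lower than both DMSO arrays, and the log2 change was -0.68 ± 0.11, a 1.61-fold fall (limma adjusted p = 0.00242). These intensities lie close to the table median of 31.3, where RMA compresses folds. The array labelled DMSO 3 also read 33.6. TNFRSF10C, which is held in the membrane by a lipid anchor, was dim on both of its probe sets. The brighter one read 26.8, 24.8 and 31.4 against 22.3 and 25.7, a log2 change of 0.20 ± 0.12 (95% interval -0.06 to 0.47, limma adjusted p = 0.323). The dimmer one, between 17.9 and 21.9 on all 5 arrays, gave the opposite sign, -0.15 ± 0.10. The mean of each TNFRSF10C probe set over these arrays lay below the table median, and no change was detectable.

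FAS, the receptor of FAS ligand, rose on all 4 of its probe sets. The brightest read 215, 215 and 230 with gedunin against 65.3 and 71.3 on DMSO 1 and 2, a log2 change of 1.69 ± 0.09, or 3.22-fold (limma adjusted p = 1.40e-06). The second read 107, 98.2 and 108 against 63.1 and 52.4. Its rise, 0.86 ± 0.10 (limma adjusted p = 4.15e-04), was smaller than that of the first, and their 95% intervals, 0.63 to 1.09 and 1.49 to 1.89, did not overlap. The last 2, which carry the suffix _x_at for probes that may match other transcripts, rose by 1.31 ± 0.16 and 1.19 ± 0.16 from DMSO levels between 19.1 and 28.1. No FAS gedunin array overlapped a DMSO 1 or 2 array on any of these probe sets. Of the 27 member probe sets, 11 lay wholly above and 7 wholly below DMSO 1 and 2, among them CFLAR probe sets that were not called. The share of such separation over all probe sets was not computed, so for every member it is description only.

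TNFRSF1A, the main receptor of TNF, read 403, 482 and 379 with gedunin and 175 and 178 on DMSO 1 and 2. The gedunin arrays were spread more widely than the 2 DMSO arrays but lay wholly above them, with a log2 change of 1.25 ± 0.11, or 2.37-fold (limma adjusted p = 5.40e-05). TNFRSF21, also called DR6, is a death domain receptor best known from neurons and lymphocytes. It read 326, 319 and 315 with gedunin against 127 and 169, where the DMSO arrays were the more variable. The log2 change was 1.13 ± 0.12, or 2.18-fold (limma adjusted p = 1.59e-04). Its dimmer probe set read 54.5, 53.4 and 38.2 against 28.8 and 26.7 and rose by 0.79 ± 0.15 (limma adjusted p = 0.00491).

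FAS, TNFRSF1A and TNFRSF21 were the members called higher for which a promoter sequence was available here. Whether they share a regulator was not tested. The 250 bases before their RefSeq starts are shown, for FAS the most upstream of 3 starts (GRCh38.p14, 5′ to 3′ on the gene's strand). They lie at chr10:88990548-88990797 on the plus strand for FAS, chr12:6342077-6342326 on the minus strand for TNFRSF1A and chr6:47309906-47310155 on the minus strand for TNFRSF21. Capitals mark matches, on either strand, to TGATGNAAN (C/EBP-ATF), TGANTCA (AP-1), GAANNTTC (heat shock element core), GGGCGG (GC box) or a simplified NF-kB pattern. That pattern leaves its middle bases free, and whether its matches meet the NF-kB consensus was not tested.
FAS: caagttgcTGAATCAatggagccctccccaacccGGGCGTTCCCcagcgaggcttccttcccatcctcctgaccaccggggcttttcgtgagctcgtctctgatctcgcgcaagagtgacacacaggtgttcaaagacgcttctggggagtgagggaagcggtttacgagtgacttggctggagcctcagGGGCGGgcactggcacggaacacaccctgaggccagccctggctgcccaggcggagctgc
TNFRSF1A: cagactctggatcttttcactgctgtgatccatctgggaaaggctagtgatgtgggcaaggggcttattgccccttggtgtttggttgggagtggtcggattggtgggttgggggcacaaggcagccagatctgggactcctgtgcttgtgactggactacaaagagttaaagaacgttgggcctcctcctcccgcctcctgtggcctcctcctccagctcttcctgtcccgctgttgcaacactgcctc
TNFRSF21: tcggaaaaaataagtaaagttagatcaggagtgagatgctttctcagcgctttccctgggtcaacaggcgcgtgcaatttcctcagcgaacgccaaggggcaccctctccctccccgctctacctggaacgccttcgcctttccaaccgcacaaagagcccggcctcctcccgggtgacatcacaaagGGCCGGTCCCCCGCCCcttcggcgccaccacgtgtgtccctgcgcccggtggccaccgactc
The FAS stretch holds an AP-1 match that begins 242 bases before the start. It also holds a match to the simplified NF-kB pattern at 216 and a GC box at 60. The TNFRSF21 stretch holds a match to the simplified NF-kB pattern at 62 and, directly after it, a GC box at 52. In the TNFRSF1A stretch there is no match to any of these letters. Over windows from 250 bases before to 50 after a start, there were 13 windows for 6 of the genes. These were CASP8, CFLAR, FADD, FAS, TNFRSF1A and TNFRSF21, so TNFRSF10B and the other TRAIL receptors had no window. C/EBP-ATF letters were in 0 of the 13, against 3.61% of 35116 windows of all genes. AP-1 letters were in 5, against 7.71%, heat shock core letters in 2, against 6.77%, and GC box letters in 8, against 45.0%. The simplified NF-kB pattern was in 3, against 25.6%. The AP-1 windows belonged to CASP8, CFLAR, FADD and FAS, of which only FAS was called higher with gedunin. The heat shock core windows belonged to CASP8 and CFLAR, which were not called. A match describes letters and not a bound site, and the 13 windows of a few genes partly overlap.

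Inside the cell, the adaptor FADD was slightly lower with gedunin. It read 177, 161 and 157 against 202 and 206 on DMSO 1 and 2, without overlap, and the log2 change was -0.31 ± 0.09, a 1.24-fold fall (limma adjusted p = 0.0481). This call lies at the threshold. It was lost without gedunin 2, gedunin 3, DMSO 1 or DMSO 2 (adjusted p = 0.116, 0.110, 0.172 and 0.216) and held without gedunin 1 (adjusted p = 0.0414).

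CASP8 and CFLAR were not called on any probe set in this limma fit; at an unadjusted p under 0.05 the counts were 0 of 2 and 2 of 11, the latter both lower. The brighter CASP8 probe set read 45.0, 48.4 and 46.4 with gedunin against 39.9 and 50.3, and the gedunin arrays lay between the 2 DMSO arrays. Its log2 change of 0.06 ± 0.11 had a 95% interval from -0.19 to 0.30 (limma adjusted p = 0.805). At such low intensities RMA compresses folds, so the interval sets no bound on the change in RNA. The change of this probe set was -0.11 without DMSO 1 and 0.22 without DMSO 2. The other probe set gave 0.09 ± 0.10. The brightest CFLAR probe set read 132, 122 and 128 against 126 and 141, with a log2 change of -0.07 ± 0.09 (95% interval -0.27 to 0.14, limma adjusted p = 0.716). Over the 11 CFLAR probe sets the change ran from -0.50 to 0.18, negative on 7 and positive on 4, with adjusted p from 0.0826 to 0.847. Of these probe sets 8 carry the suffix _x_at and 5 lie below the table median. The largest falls, -0.50 ± 0.19 and -0.46 ± 0.16, were on probe sets that read 21.7 to 31.7 and 20.0 to 29.7 with gedunin, close to or below that median. Without gedunin 1, 1 CFLAR probe set was called lower, as was 1 with limma's trend and robust options.

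**Figure D2:**
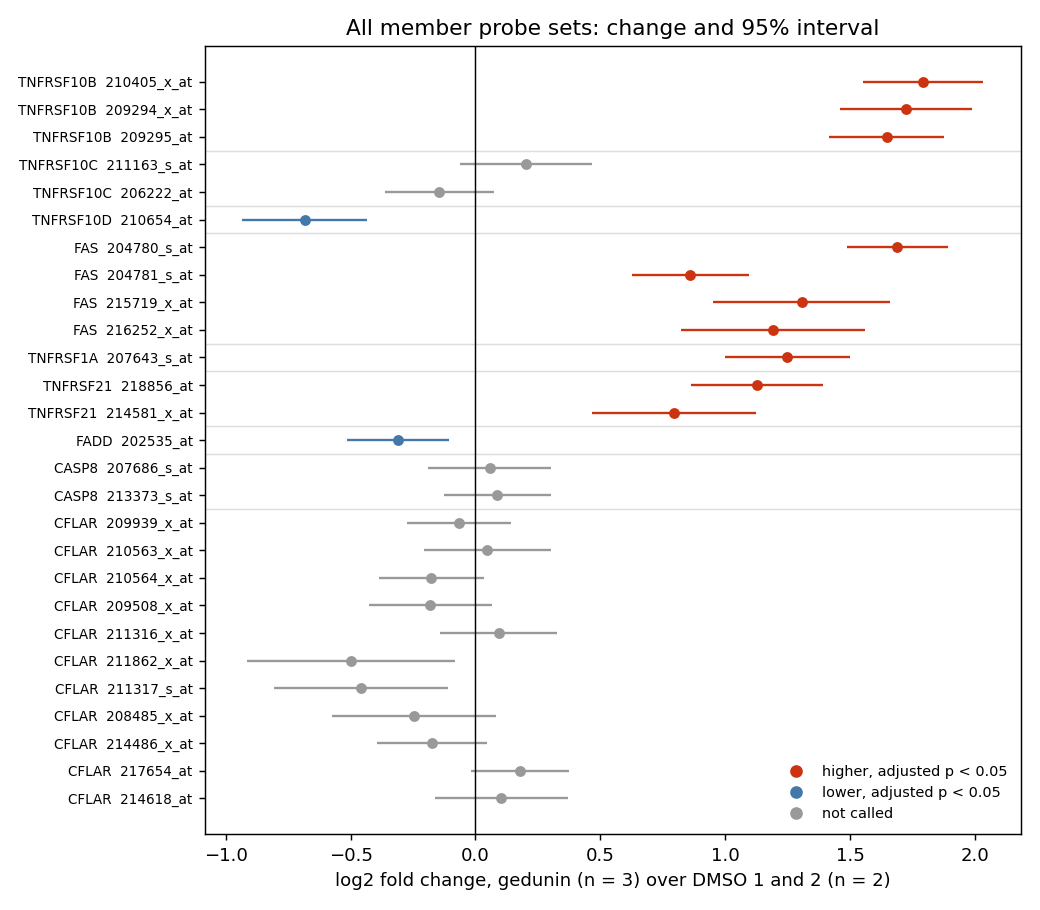
Log2 fold change, gedunin (n = 3) over DMSO 1 and 2 (n = 2), of all 27 probe sets grouped by gene, as points with 95% intervals from limma; red is called higher, blue called lower and grey not called. All 10 probe sets of TNFRSF10B, FAS, TNFRSF1A and TNFRSF21 lie between 0.79 and 1.79, while the 11 CFLAR probe sets lie between -0.50 and 0.18 (centring on GAPDH and ACTB called 6 of them lower).

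The surrounding pathway was read on 5 lists of partners and a list of transcription regulators, 52 genes in all, of which 42 were measured. In them, 11 genes were called higher and 4 lower, beside the gene-level shares of 8.24% and 9.36%, and the median log2 change was -0.0028. Of the genes called higher, 6 came from the list of transcription regulators. The lists were chosen with earlier results of these data known, so the pooled counts are description only. None of the 5 ligands was called (limma; 0 at an unadjusted p under 0.05, and all 5 below the table median), among them TRAIL (TNFSF10, -0.03 ± 0.11) and FAS ligand (FASLG, 0.05 ± 0.09). None of 6 further death and decoy receptors was called either (limma; 1 at an unadjusted p under 0.05), and all 6 were below the median. For these 11 genes the arrays give no clear signal and so no direction.

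Among 6 measured partners in the signalling complex, TRADD, the adaptor of TNFRSF1A, fell by 0.34 ± 0.09 (limma adjusted p = 0.0245). It read 121, 122 and 116 with gedunin against 148 and 154, and its other 2 probe sets were not called in that direction. CASP10, the close relative and genomic neighbour of CASP8, was dim and not called (-0.06 ± 0.10). RIPK1 was not analysed here. Of 9 genes of the effector and mitochondrial arm, 2 rose and 2 fell, beside 8.24% and 9.36% of all genes. BID, which caspase 8 cuts to engage mitochondria, read 213, 210 and 208 against 147 and 130 and rose by 0.61 ± 0.09 (limma adjusted p = 0.00147), also on its other probe set. CASP9, the mitochondrial initiator caspase, rose by 0.41 ± 0.09. The mitochondrial protease HTRA2 fell by 0.38 ± 0.10 and DFFA, the inhibitor of the apoptotic nuclease, by 0.40 ± 0.11. CASP9 and HTRA2 each had a further probe set that was not called in the same direction.

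Of 8 measured brakes and turnover genes, 3 rose and 1 fell, beside the same shares of 8.24% and 9.36%. CYLD, a deubiquitinase that acts on TNF receptor complexes, read 244, 227 and 221 with gedunin against 96.8 and 116 and rose by 1.12 ± 0.10 (limma adjusted p = 7.05e-05), with 1 of its 6 other probe sets called in the same direction. ITCH, a ubiquitin ligase known to mark CFLAR for degradation, rose by 0.62 ± 0.12. CUL3, the scaffold of a ligase that ubiquitinates caspase 8, fell by 0.64 ± 0.09 (limma adjusted p = 0.00139) on 1 of 3 probe sets. PEA15, a death effector domain protein that binds FADD, rose by 0.40 ± 0.09 on 1 of 2 probe sets, and XIAP, a direct caspase inhibitor, was not called (0.08 ± 0.19).

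Of 8 measured genes listed as transcription regulators of the members, 6 rose and 0 fell, beside 8.24% and 9.36% of all genes. Their median log2 change was 1.43. The list was chosen with earlier results of these data known, so these counts are description only. DDIT3 read 3417, 3647 and 3326 with gedunin against 161 and 184 on DMSO 1 and 2, a log2 change of 4.33 ± 0.10 (limma adjusted p = 7.58e-09). ATF3 (3.94), TRIB3 (3.31) and CEBPB (2.10) rose as well, and ATF4 (0.75) and JUN (0.46), named after their values were seen, were the remaining called members of that list. TRIB3, counted in it, is a pseudokinase and not a transcription factor. SP1 and YY1 were not called.

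**Figure D3:**
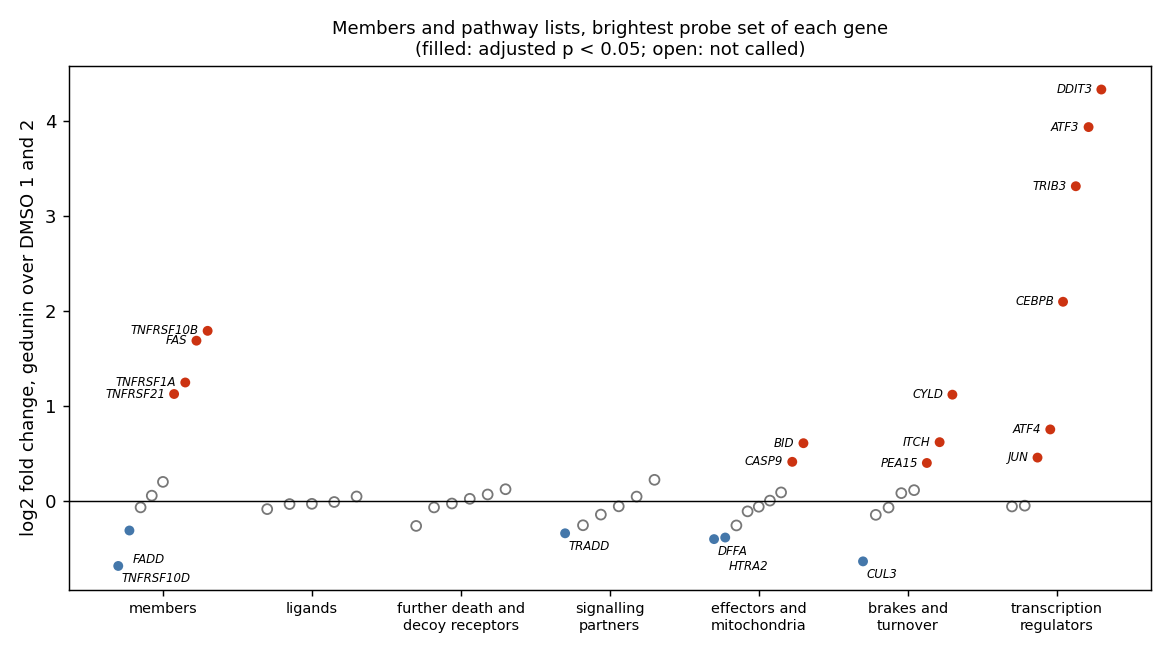
Log2 fold change, gedunin over DMSO 1 and 2, of the brightest probe set of each measured gene, with the 9 members at the left and the 6 lists beside them; filled points passed an adjusted p of 0.05 and open points did not. The ligand and further receptor lists hold only open points, and the list of transcription regulators, which includes the pseudokinase TRIB3, holds the largest rises, up to 4.33 for DDIT3.

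By the rule for similar patterns, the 5 genes whose centred log2 profile over the 5 arrays lay nearest to that of TNFRSF10B were SLC7A11, SMAD1, DNAJB6, TMEM39A and MAP1LC3B. Their root mean square distances were 0.055 to 0.090 on the log2 scale, and their changes 1.77 to 1.86. With 5 arrays in 2 groups this likeness mostly restates a rise of similar size.

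The array labelled DMSO 3 read the members quite differently from the other 5. On it the brightest FAS probe set read 772, which is 5.61 times the geometric mean of the other arrays, and the brightest CFLAR probe set read 585, which is 4.52 times that mean. TNFRSF1A read 35.7 and TNFRSF21 25.3, lower than the mean of the other 5 arrays by 8.30-fold and 9.24-fold. FADD at 207 and CASP8 at 56.1 lay near the other arrays. When that array was counted as a control (3 against 3), 2 of 27 probe sets were called higher, against 1.13% of all probe sets, and 0 lower, against 0.27%; 7 had an unadjusted p under 0.05. Both called ones were TNFRSF10B probe sets, with log2 changes of 1.98 ± 0.25 and 1.69 ± 0.11 (limma adjusted p = 0.0330 and 0.00486), while its brightest had 2.26 ± 0.41 (adjusted p = 0.0864). In that fit FAS had 0.52 ± 0.99, TNFRSF1A 2.02 ± 0.66, TNFRSF21 1.97 ± 0.72, TNFRSF10D -0.39 ± 0.27 and FADD -0.32 ± 0.08, and none of these was called (adjusted p from 0.203 to 0.848).

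**Figure D4:**
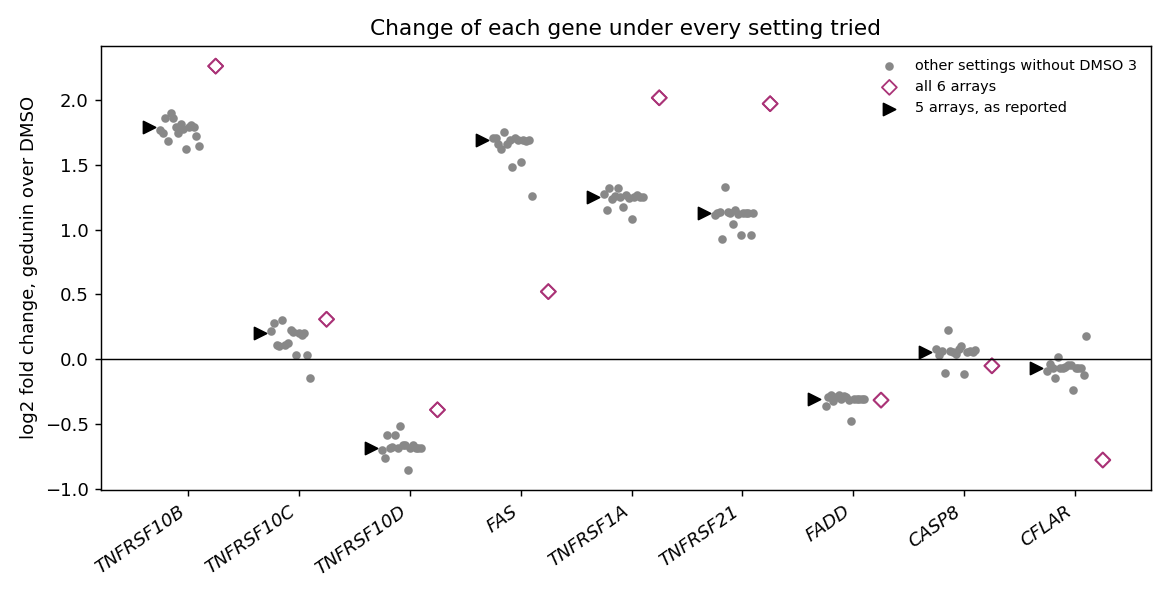
Log2 fold change of each gene under every setting tried, with a black triangle for the 5-array value, grey points for the other settings without the array labelled DMSO 3 and open diamonds for the fits of all 6 arrays, whose values with and without a replicate block coincide. TNFRSF10B, FAS, TNFRSF1A and TNFRSF21 stay between 0.92 and 1.90 in the grey points, and FAS drops to 0.52 with all 6 arrays.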

How the data were processed

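The deposited table gives an intensity per array for 22215 probe sets, made by the authors with RMA according to the submitters' processing notes; the version and which arrays were processed together are not given in the sources used here. RMA draws dim probe sets together, so their folds are understated, and the table has no detection calls. The values were linear, and log2 was taken. Probe sets were named from the platform annotation (19724 name exactly 1 gene), and promoter sequences came from RefSeq (GRCh38.p14).

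Gedunin was compared with DMSO 1 and 2 by limma 3.58.1 in R 4.3.3 (lmFit, eBayes without trend), with no filter on dim probe sets and Benjamini-Hochberg adjustment over all probe sets. The code was tested on simulated data. The members, lists, exclusion of DMSO 3 and alternatives were chosen with earlier results of these data known. Named were all members, 8 pathway genes whatever their result, up to 4 called genes per list and the nearest profiles.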

Additional observations from a re-analysis of the deposited data

Results flagged for a closer look

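Of the array labelled DMSO 3, which enters no comparison of the 5-array fit, 2 members stood out because they read over 2-fold above both DMSO 1 and DMSO 2. FAS read 772 on it, against 65.3 and 71.3, and CFLAR read 585, against 126 and 141. Leukocyte markers were high on the same array, and their part in these levels was not tested. Dixon's check of single arrays needs at least 4 arrays in a group and was not run.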

How the results depend on the processing

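Without the array labelled DMSO 3, the calls and directions of TNFRSF10B, FAS, TNFRSF1A, TNFRSF21 and TNFRSF10D held under every alternative that measured them (dropping suffixes left no FAS or TNFRSF1A probe set), and their log2 changes ranged from 1.62 to 1.90, 1.26 to 1.75, 1.08 to 1.32, 0.92 to 1.33 and -0.85 to -0.51. Counting also the fits with all 6 arrays, FADD lost its call under 11 of 18 alternatives. With all 6 arrays limma called 2 probe sets, 0 of the 9 genes (4 at an unadjusted p under 0.05), 4 of 42 pathway genes and 312 probe sets of the table. With a replicate block as well, it called 0 probe sets (7 at an unadjusted p under 0.05), 0 genes (4), 0 pathway genes (10) and 2 probe sets of the table. In the 5 arrays the replicate block gave 11 probe sets and 5 genes, FADD losing its call. Same-numbered arrays correlated by -0.033 and 0.039 in their deviations from group means. The deviations of DMSO 1 and DMSO 2 mirror each other, so these values cannot settle whether the numbers pair the arrays. The 5-array fit did not use the numbers as pairs. Leaving out each of the 5 arrays gave 10 to 13 probe sets, 5 to 6 genes, 9 to 14 pathway genes and 1805 to 3064 probe sets of the table (1805 without DMSO 1, 1835 without DMSO 2); without DMSO 1 or DMSO 2 the lone control was assumed to vary like the gedunin arrays, and the pathway count was 9 in both cases. Dropping the suffixes _x_at and _s_at left 3 called of 7 probe sets, 3 of 6 genes, 7 of 25 pathway genes, 1586 probe sets of the table and a median change over the member genes of 0.016. That median, 0.20 in the 5-array fit, was 0.10 to 0.30 with each array left out, 0.12 on log2 of the value plus 16, 0.11 with the block in 5 arrays and 0.31 with all 6 arrays, 0.59 without dim probe sets and 0.032 when centred on GAPDH and ACTB, a centring that called 6267 probe sets of the table (1041 higher, 5226 lower, against 1638 and 1758); ACTB itself read 12559 to 13255 with gedunin and 9921 and 10630 on DMSO 1 and 2. A threshold of 0.01 called 1869. Signs turned only for genes that were not called: CASP8 to -0.052 with all 6 arrays (block or not), -0.11 without DMSO 1 (0.22 without DMSO 2) and -0.11 centred on GAPDH and ACTB, CFLAR to 0.013 without DMSO 2 and to 0.18 on another probe set when suffixes were dropped, and TNFRSF10C likewise to -0.15. The causes were not tested. Signal close to background limits TNFRSF10C, the ligands and 5 of the CFLAR probe sets.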
